A study of Mus musculus with 8 samples.

Results

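The genes of MHC class II antigen presentation were examined in intestinal epithelial cells (IECs) of mice with and without CD1d. The 8 members were chosen by name, as the rows of the count table for Ciita, Cd74, H2-Aa, H2-Ab1, H2-Eb1, H2-DMa, H2-DMb1 and H2-DMb2, which are 8 of 25239 genes listed. In the bulk RNA-seq, IECs from crypts of the proximal small intestine were sorted for EpCAM, with cells carrying CD45, CD31 or Ter119 left out, with 4 samples from CD1d-KO mice (labelled CD1d1/2 KO) and 4 from wild-type (WT) mice (labelled C57BL/6Jax). The question was how the absence of CD1d, a presenter of lipids, and of the natural killer T (NKT) cells that depend on it alters the epithelium. No sample was treated. According to the study's methods, its experiments used young adult males and females, with age and sex matched between genotypes. In these samples, however, only CD1d-KO 1 and 2 carried counts of Y-linked genes, and no WT sample did. The knockout is present in every cell of the mouse, so CD1d was missing from the IECs as well as NKT cells from the tissue. Sex and experiment are not recorded per sample in the labels, and the study states that its mice were no littermates.

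MHC class II molecules display peptides from endocytosed proteins to CD4+ T cells. They are typical of B cells, dendritic cells and macrophages, but epithelial cells of the small intestine also make them, in particular under interferon-gamma. An alpha and a beta chain assemble with the invariant chain and travel to endosomes, where proteases trim the invariant chain to a fragment. That fragment is exchanged for a peptide with the help of H2-DM. The coactivator CIITA acts on the promoters of the class II chain, invariant chain and H2-DM genes. It does so through factors bound to a conserved X box and Y box.

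The promoters of 4 members are shown because X and Y boxes are the elements through which CIITA acts on class II genes. Of the 8 members, 5 had an entry among the RefSeq promoters (GRCm38.p6). H2-Ab1, Ciita and Cd74 had no entry. Each stretch is 140 bases on the gene's strand, 5′ to 3′, from within the 250 bases before the annotated start, and capitals mark the X box (AAC and TGATG with any 3 bases between them) and GATTGG (Y box core, an inverted CCAAT box), searched on both strands and written down after these sequences had been seen. They lie at chr17:34305727-34305866 (plus strand, H2-Eb1), chr17:34153051-34153190 (plus strand, H2-DMb1), chr17:34145109-34145248 (plus strand, H2-DMb2) and chr17:34287824-34287963 (minus strand, H2-Aa).

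H2-Eb1: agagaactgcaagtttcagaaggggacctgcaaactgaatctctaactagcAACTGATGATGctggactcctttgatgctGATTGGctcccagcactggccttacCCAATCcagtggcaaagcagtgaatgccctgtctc
H2-DMb1: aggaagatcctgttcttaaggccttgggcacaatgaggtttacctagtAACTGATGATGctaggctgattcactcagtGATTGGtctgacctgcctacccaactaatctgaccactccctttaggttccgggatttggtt
H2-DMb2: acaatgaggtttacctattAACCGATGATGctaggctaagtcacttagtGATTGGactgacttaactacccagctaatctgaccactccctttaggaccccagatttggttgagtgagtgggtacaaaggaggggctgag
H2-Aa: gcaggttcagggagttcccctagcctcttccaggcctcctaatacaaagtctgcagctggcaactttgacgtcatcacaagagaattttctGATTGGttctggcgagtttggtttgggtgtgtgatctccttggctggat

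H2-Eb1, H2-DMb1 and H2-DMb2 held both elements. The X box began 89 bases before the start in H2-Eb1, 92 in H2-DMb1 and 121 in H2-DMb2, and in each the Y box core followed it downstream. H2-Aa held the Y box core alone in these letters, and of the start sites listed for H2-DMa, one held GATTGG and the other neither motif. Only promoters with GATTGG were shown, and H2-DMa was left out. The presence of GATTGG in every stretch shown was thus set by that choice. Among 32851 mouse promoters, 14.6% held GATTGG, 0.539% held the X box and 0.07% held both within the same 250 bases. These matches are a description of sequence, and binding was not measured.

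Before the members, the samples were checked. Total counts per sample ran from 23610266 to 31629435. For the targeted gene Cd1d1, CD1d-KO 1 to 4 had 8, 3, 5 and 0 raw counts, and WT samples had 50 to 94. Of 10 epithelial markers all were tested and 0 were called by DESeq2 (0 also at an unadjusted p under 0.05), and Epcam itself stood between 52220 and 58700 normalised counts in every sample. CD1d-KO 1 and 2 carried counts of Y-linked genes, while CD1d-KO 3 and 4 and all WT samples did not. Xist had 67.95 and 50.48 normalised counts in CD1d-KO 1 and 2, 21980 and 35400 in CD1d-KO 3 and 4, and 27540 to 31440 in WT. No WT sample thus matched CD1d-KO 1 and 2, and sex and whatever else those mice shared cannot be told apart. Each result on the members is therefore given with and without CD1d-KO 1 and 2. Between CD1d-KO 1 and 2 and CD1d-KO 3 and 4, 0 of the 10 epithelial markers were called, but they were not all even. Olfm4 had 206000 and 195400 normalised counts in the first pair and 155900 and 139600 in the second (DESeq2 adjusted p = 0.0617). Krt20 had 9684 and 10500 against 14430 and 12950 (adjusted p = 0.0962).

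All 7 members with an adjusted p were lower in every CD1d-KO sample than in any WT sample, as were 5.52% of all tested genes. The size of the gap differed manyfold between the CD1d-KO samples. Relative to the WT mean, the normalised counts of these 7 genes were between 0.80% and 11.7% in CD1d-KO 1, between 3.04% and 20.9% in CD1d-KO 2, between 59.2% and 74.3% in CD1d-KO 3 and between 46.8% and 61.6% in CD1d-KO 4. In sorted bulk cells, fewer class II-expressing cells and less class II RNA per cell cannot be told apart. Normalised counts are raw counts divided by a size factor per sample, and fold changes below are CD1d-KO over WT on the log2 scale with their standard error (SE).

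**Figure D1:**
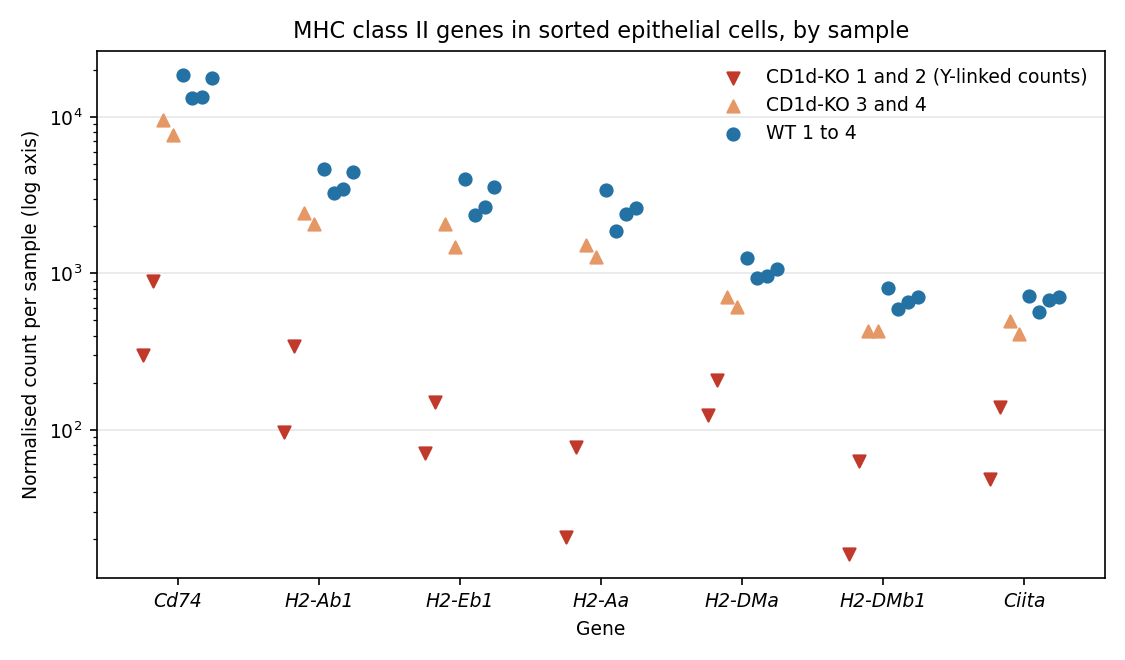
Normalised counts of the 7 tested class II genes (log axis), with 1 point per sample, ordered within a gene from CD1d-KO 1 to WT 4. Every CD1d-KO point lies under all WT points of its gene, and CD1d-KO 1 and 2 lie far under CD1d-KO 3 and 4, as for H2-Aa with 20.56 and 78.1 against 1523 and 1269.

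Ciita encodes the coactivator that switches on the other members (mm10 chromosome 16, 10480072 to 10527640, plus strand). It had 48.28, 139.1, 494.6 and 408 normalised counts in CD1d-KO 1 to 4 and 713.7, 565.9, 674.8 and 706.6 in WT 1 to 4. WT samples were close together (665.3 ± 68.4, SD, n = 4), and CD1d-KO samples were spread over the range between 48.28 and 494.6 (272.5 ± 213, SD, n = 4). The log2 fold change was -1.29 ± 0.67 (DESeq2 adjusted p = 0.342).

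Cd74 encodes the invariant chain, the chaperone that fills the groove of new class II molecules (mm10 chromosome 18, 60803849 to 60812652, plus strand). The microRNA gene Mir5107 overlaps it in the annotation. Its normalised counts were 298.6, 896.2, 9507 and 7712 in CD1d-KO 1 to 4 and 18630, 13160, 13390 and 17690 in WT 1 to 4. The lowest WT sample was 1.38-fold above the highest CD1d-KO sample, and raw counts in the low libraries, 334 and 941, were well above counting error. The log2 fold change was -1.77 ± 0.96 (DESeq2 adjusted p = 0.379).

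H2-Aa and H2-Ab1 encode the alpha and the beta chain of I-A, the class II molecule of C57BL/6 mice, and lie on mm10 chromosome 17 (34282744 to 34287823, minus strand, and 34263227 to 34269418, plus strand). H2-Aa had 20.56, 78.1, 1523 and 1269 normalised counts in CD1d-KO 1 to 4 against 3427, 1863, 2386 and 2609 in WT 1 to 4. H2-Ab1 had 97.45, 345.7, 2421 and 2071 in the CD1d-KO samples against 4668, 3271, 3482 and 4435 in WT. Neither gene's genotypes overlapped. H2-Aa gave the most negative log2 fold change of the 7 tested members, -1.83 ± 1.13 (DESeq2 adjusted p = 0.469), and H2-Ab1 gave -1.68 ± 0.89 (adjusted p = 0.358).

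H2-Eb1 encodes the beta chain of I-E (34305867 to 34316674, plus strand, on chromosome 17), whose alpha chain gene H2-Ea is not expressed in the haplotype of C57BL/6 mice. H2-Eb1 had 70.63, 149.5, 2067 and 1467 normalised counts in CD1d-KO 1 to 4 and 3991, 2351, 2650 and 3549 in WT 1 to 4, with a log2 fold change of -1.74 ± 0.98 (DESeq2 adjusted p = 0.401). H2-Ea was at 0 counts in every CD1d-KO sample, and WT 1 to 4 had 2, 2, 0 and 0. The beta chain transcript was thus in the range of its I-A counterparts while that of the alpha chain was at the floor in every sample.

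H2-DMa and H2-DMb1 encode the chains of H2-DM, which catalyses peptide loading. H2-DMa (34122832 to 34139101, plus strand, on chromosome 17) had 123.4, 207.6, 710.6 and 609.6 normalised counts in CD1d-KO 1 to 4 and 1251, 940, 958.8 and 1068 in WT 1 to 4. H2-DMb1 (34153191 to 34160229, plus strand, on chromosome 17) had 16.09, 62.86, 425.2 and 426.3 in the CD1d-KO samples and 810.9, 591.1, 657.3 and 707.9 in WT. Both were lower in every CD1d-KO sample, with H2-DMa the least reduced of the members in CD1d-KO 1. The log2 fold change was -1.35 ± 0.57 for H2-DMa (DESeq2 adjusted p = 0.182) and -1.57 ± 0.91 for H2-DMb1 (adjusted p = 0.420). H2-DMb2, a second beta chain gene (34143229 to 34151553, plus strand), was counted 0, 0, 0 and 1 times in CD1d-KO 1 to 4 and 3, 1, 5 and 2 times in WT 1 to 4, too few for an adjusted p. The reads of near-identical stretches of H2-DMb1 and H2-DMb2 could have been assigned to either gene, so the H2-DMb2 counts are uncertain.

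Across the 8 samples DESeq2 called 0 of the 7 tested members, where 4.03% of 15446 genes were called and 2.38% were called as lower in CD1d-KO. At an unadjusted p under 0.05 stood 2 of the 8, H2-DMa and H2-DMb2, of which the second has no adjusted p. The quasi-likelihood test of edgeR also called 0, with 7 members at an unadjusted p under 0.05. The median log2 fold change of the tested members was -1.68, against 0.000995 over all tested genes. The genotypes did not overlap in 7 of 7 tested members, all lower in CD1d-KO, against 9.61% of tested genes without overlap and 5.52% without overlap and lower. For each of these members the exact two-sided permutation p over the 70 assignments of samples was 0.0286, the smallest this design allows. Any gene without overlap has this p, so it restates the lack of overlap and adds no support to it. The SD over CD1d-KO samples was as large as their mean in Cd74, at 4604 ± 4690 against 15720 ± 2850 in WT (SD, n = 4). Without CD1d-KO 3, H2-DMa alone passed (log2 fold change -1.75, DESeq2 adjusted p = 0.0446), and without any other single library 0 members were called.

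With CD1d-KO 1 and 2 left out, which leaves 2 CD1d-KO and 4 WT samples, 5 of the 7 tested members were downregulated in CD1d-KO IECs. In this fit 2.57% of 14473 genes were called and 1.35% were called as lower in CD1d-KO. Cd74 had a log2 fold change of -0.87 ± 0.14 (DESeq2 adjusted p = 2.5e-07), H2-Ab1 of -0.82 ± 0.14 (adjusted p = 1.33e-06), H2-DMa of -0.67 ± 0.14 (adjusted p = 0.000165) and H2-DMb1 of -0.70 ± 0.14 (adjusted p = 0.000189). Ciita was reduced less, by a log2 fold change of -0.56 ± 0.14 (adjusted p = 0.00645). H2-Aa at -0.88 ± 0.29 (adjusted p = 0.0668) and H2-Eb1 at -0.83 ± 0.30 (adjusted p = 0.149) were not called, and had the widest errors of the 7. WT means were 1.47-fold to 1.84-fold those of CD1d-KO 3 and 4 for the 7 genes, and all 7 were again without overlap, as were 12.1% of genes in that direction. The edgeR test in these samples, added after the data were seen, called 4 of the 7, where 0.42% of genes were called as lower. Its adjusted p values were much nearer the threshold than those of DESeq2. They were 0.0376 for Cd74, 0.0361 for H2-Ab1, 0.0437 for H2-DMa and 0.0419 for H2-DMb1, and Ciita was not called (edgeR adjusted p = 0.0889). With Y-linked counts as a covariate in all 8 samples the genotype term called H2-DMa alone, at a log2 fold change of -0.68 (DESeq2 adjusted p = 0.00435). Cd74 stood at -0.87 ± 0.44 in that fit (adjusted p = 0.388).

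The CD1d-KO samples with Y-linked counts were compared with those without through that covariate, a comparison within the genotype that was also added after the data were seen. All 7 tested members were lower in CD1d-KO 1 and 2, where 1.61% of 13630 genes were called and 1.20% were called as lower. H2-Aa was lower by the most, with a log2 difference of -4.83 ± 0.61 (DESeq2 adjusted p = 3.87e-12), and its mean in CD1d-KO 3 and 4 was 28.3-fold that in CD1d-KO 1 and 2. H2-Eb1 followed at -4.01 ± 0.45 (adjusted p = 2.46e-15), then Cd74 at -3.85 ± 0.51 (adjusted p = 4.99e-11) and H2-DMb1 at -3.43 ± 0.56 (adjusted p = 8.41e-07). H2-Ab1 stood at -3.34 ± 0.55 (adjusted p = 1.11e-06), and the smallest differences were in Ciita, -2.27 ± 0.46 (adjusted p = 0.000353), and H2-DMa, -2.0 ± 0.20 (adjusted p = 1.21e-18). CD1d-KO 1 and 2 lay under CD1d-KO 3 and 4 without overlap in all 7, as in 23.2% of all tested genes. When genes were ordered by this difference, H2-Aa had rank 8 from the most negative and H2-DMa rank 37, with the other 5 between them. The comparison rests on 2 samples against 2, and sex, experiment and any other property of these mice cannot be told apart in it.

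**Figure D2:**
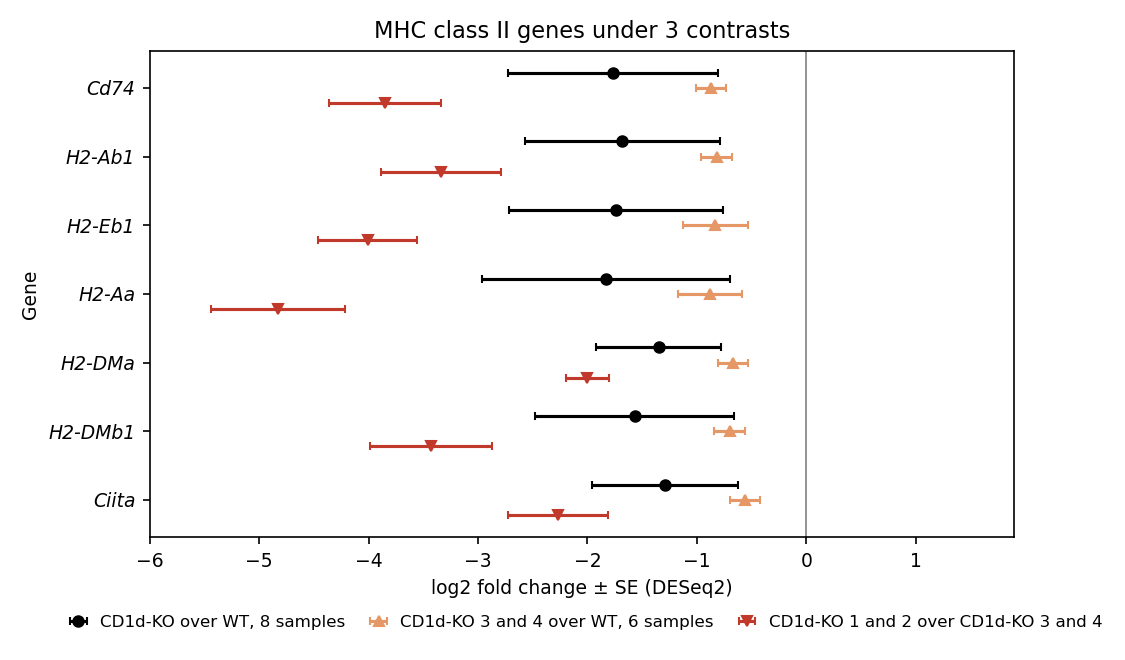
Log2 fold change ± SE of the 7 tested members under 3 contrasts (DESeq2), with 0 marking no difference. The contrast over 8 samples has wide errors, the contrast of CD1d-KO 3 and 4 with WT has small differences between -0.88 and -0.56 with narrow errors, and the difference within CD1d-KO runs from -4.83 to -2.0.

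Some proportions between members differed in CD1d-KO 1 and 2. Levels between genes were compared as TPM (transcript abundance scaled to a fixed total per sample, computed here from the counts per summed exon length). In WT, Cd74 was highest at 925 ± 174 TPM (SD, n = 4), above H2-Ab1 at 277 ± 50.1, H2-Aa at 190 ± 49.5 and H2-Eb1 at 156 ± 39.3. Next were H2-DMb1 at 44.8 ± 6.35 TPM and H2-DMa at 40.6 ± 5.79, then Ciita at 9.23 ± 1.01 and H2-DMb2 at 0.13 ± 0.0722. The ranges over WT samples overlapped between the neighbours H2-Ab1 and H2-Aa, H2-Aa and H2-Eb1, and H2-DMb1 and H2-DMa. Within each WT sample, however, the order of these pairs was the same. The summed level of all 8 members was 36.6, 107, 966 and 810 TPM in CD1d-KO 1 to 4 and 2000, 1330, 1420 and 1820 TPM in WT 1 to 4, with Cd74 making up between 49.0% and 57.8% of it in every sample.

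Within a sample, the TPM of H2-Aa per H2-Ab1 was 0.223 and 0.239 in CD1d-KO 1 and 2, 0.665 and 0.648 in CD1d-KO 3 and 4, and 0.603 to 0.776 in WT. The alpha chain transcript was thus low relative to its beta chain in CD1d-KO 1 and 2, and at the WT proportion in CD1d-KO 3 and 4. H2-DMa per H2-DMb1 was 4.55 and 1.96 in CD1d-KO 1 and 2, against 0.992 and 0.849 in CD1d-KO 3 and 4 and 0.866 to 0.944 in WT. H2-Aa per Ciita was 2.26 and 2.99 in CD1d-KO 1 and 2, against 16.4 and 16.5 in CD1d-KO 3 and 4 and 17.5 to 25.5 in WT. Cd74 per H2-Ab1 differed less, with 2.58 and 2.19 in CD1d-KO 1 and 2, 3.31 and 3.14 in CD1d-KO 3 and 4, and 3.24 to 3.39 in WT. H2-Eb1 per H2-Ab1 did not set the pair apart, with 0.518 and 0.309 in CD1d-KO 1 and 2, 0.61 and 0.506 in CD1d-KO 3 and 4, and 0.514 to 0.611 in WT. These ratios were not tested.

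**Figure D3:**
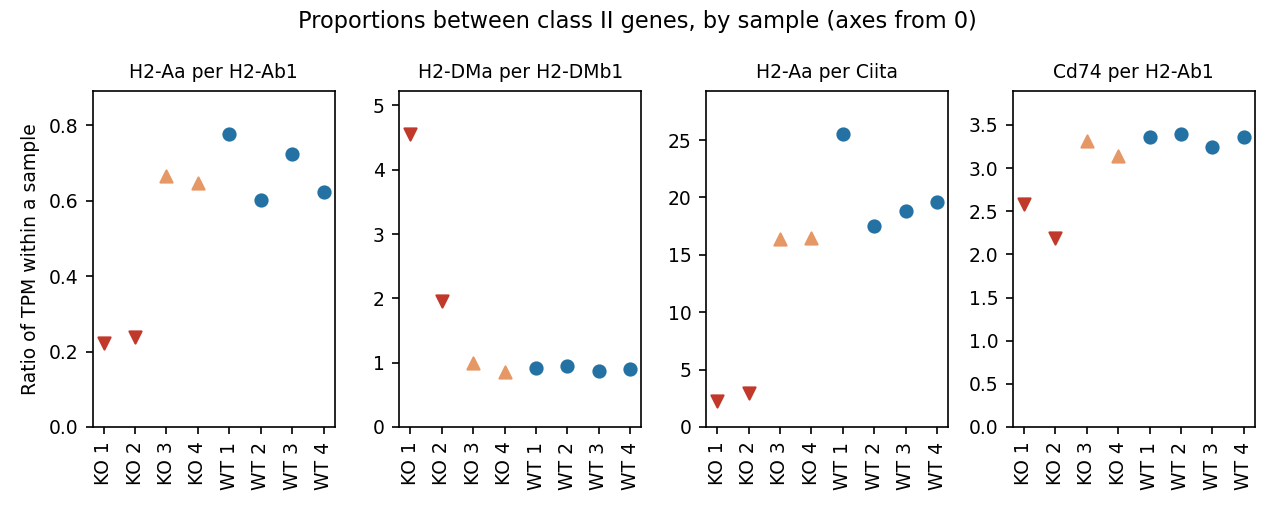
Ratios of TPM between pairs of class II genes in each sample, on linear axes that start at 0, with downward triangles for CD1d-KO 1 and 2, upward triangles for CD1d-KO 3 and 4 and circles for WT. CD1d-KO 1 and 2 stand apart in these 4 ratios, unlike in H2-Eb1 per H2-Ab1, and are low in H2-Aa per H2-Ab1 (0.223 and 0.239) and high in H2-DMa per H2-DMb1 (4.55 and 1.96).

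Leukocytes also express class II genes, and markers of leukocytes were lower in CD1d-KO samples. Of 43 leukocyte markers in the table, 26 were tested, while 12 had at most 3 counts in every sample. DESeq2 called 6, among them Jchain, Itgam and Cd14, and all 6 were lower in CD1d-KO. Of all tested genes 4.03% were called and 2.38% were called as lower. Their score was -0.694, -0.765, -0.534 and -0.506 in CD1d-KO 1 to 4 and 1.764, 0.547, 0.261 and -0.073 in WT 1 to 4, a difference in means of -1.25 log2 units (exact two-sided permutation p = 0.0286, n = 4 per genotype). Without CD1d-KO 1 and 2 the genotypes' scores again did not overlap, and 2 of these markers were called, Itgam and Cd14, where 2.57% of all genes tested in that fit were called. Between the CD1d-KO samples, marker lists differed in direction. The leukocyte score, the T and NK cell sum and Ptprc were lower in CD1d-KO 1 and 2 than in CD1d-KO 3 and 4. The B and plasma cell sum and the dendritic cell and macrophage sum were not. Summed normalised counts of 11 B and plasma cell markers were 59.9 and 69.53 in CD1d-KO 1 and 2 and 56.69 and 56.64 in CD1d-KO 3 and 4, against 121.2 to 628.3 in WT. Those of 19 dendritic cell and macrophage markers were 1289 and 1271 in CD1d-KO 1 and 2 and 1006 and 1068 in CD1d-KO 3 and 4, against 1386 to 2005 in WT. Of these 19, 10 had at most 3 counts in every sample, among them Flt3, Xcr1 and Spi1, which mark dendritic cells or the myeloid lineage. Most of the sum was Itgam (678.4 to 1169), so the sum says little about the level of dendritic cells. The 13 T and NK cell markers summed to 109.1, 89.53, 162.3 and 194.9 in CD1d-KO 1 to 4 and to 150.4 to 717.7 in WT. Ptprc, which encodes CD45, had 34.87, 38.1, 58.65 and 86.41 normalised counts in CD1d-KO 1 to 4 and 69.69 to 118.8 in WT.

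Between CD1d-KO 1 and 2 and CD1d-KO 3 and 4, the B cell and the dendritic cell and macrophage sums were no lower in the first pair, the T and NK cell sum and Ptprc were lower in it, and the means of the 7 tested class II genes were 3.99-fold to 28.3-fold higher in the second pair. The part of these markers in that difference was not tested. Among WT samples, WT 1 had the highest leukocyte score (1.764) and the highest Cd74 count (18630), and WT 4 had the lowest score (-0.073) and the second highest Cd74 count (17690). Of the other lists, 15 stomach markers summed to 1262, 1178, 833.8 and 1746 normalised counts in CD1d-KO 1 to 4 and to 2703 to 17780 in WT, and 10 endothelial and stromal markers to at most 47.12 in any sample. With the leukocyte score as a covariate the log2 fold change of Cd74 was -1.34 ± 1.64 (DESeq2 adjusted p = 0.986), and with the stomach score it was -0.84 ± 1.98 (adjusted p = 0.939). In these fits 0 members were called, and 82 and 108 genes in all. The leukocyte score did not overlap between genotypes, and neither did the stomach score (at most 0.2818 in CD1d-KO and at least 0.9301 in WT). These fits therefore cannot separate either score from genotype. The part of leukocytes and of stomach cells in the class II difference between genotypes was not tested.

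**Figure D4:**
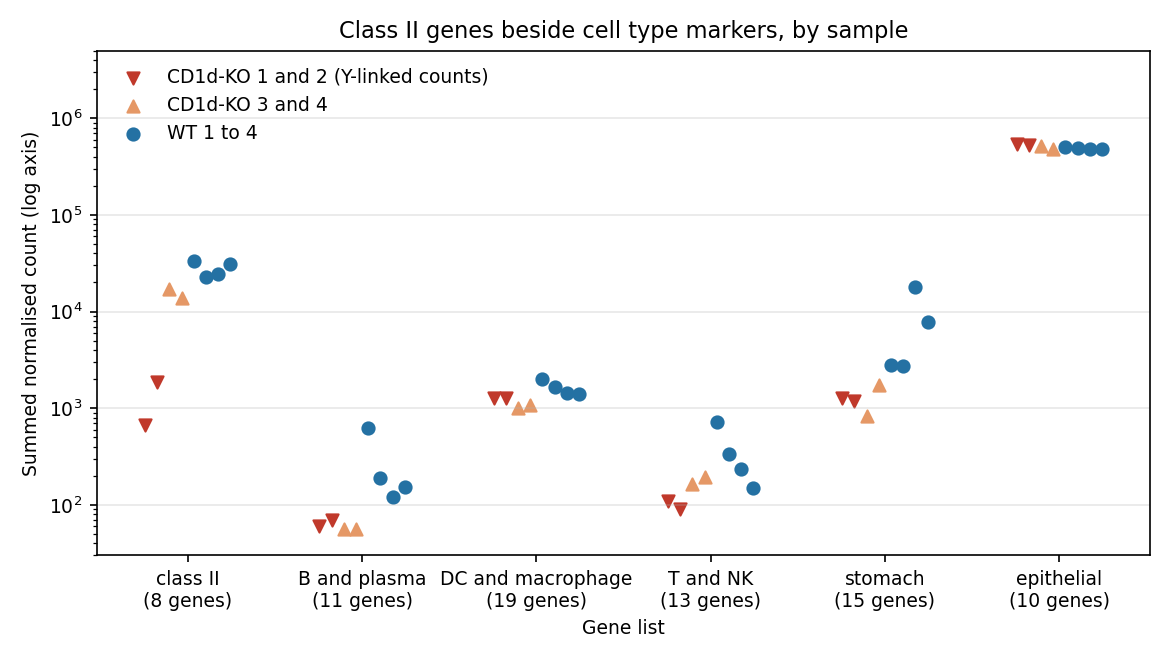
Summed normalised counts of the class II genes and of 5 marker lists in each sample (log axis). The class II sum of CD1d-KO 1 and 2 (675 and 1879) lies far under that of CD1d-KO 3 and 4 (17150 and 13960). The B and plasma cell sums of these samples lie between 56.64 and 69.53. Their T and NK cell sums are 109.1 and 89.53 in the first pair and 162.3 and 194.9 in the second.

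Genes that act with class II molecules in processing summed to 37250 to 40600 normalised counts in CD1d-KO and 37530 to 39620 in WT. Of 14 in the table, 11 were tested and 1 was called, against 4.03% of all tested genes, and the median log2 fold change was -0.0071. The called gene was H2-Ob, the beta chain of the H2-DM inhibitor H2-DO and typical of B cells, counted 10, 3, 9 and 1 times in WT 1 to 4 and not at all in CD1d-KO (at least 2.02-fold lower against a floor of 3 counts per library, DESeq2 adjusted p = 0.0192). The call was lost without CD1d-KO 1 (adjusted p = 0.0548) or CD1d-KO 2 (adjusted p = 0.0672), H2-Ob received no adjusted p when CD1d-KO 3 or 4, or WT 1 or 3, was left out, and it was called without WT 2 (adjusted p = 0.0499) or WT 4 (adjusted p = 0.0133). Its partner H2-Oa and the class II gene H2-Eb2 also had 0 counts in all CD1d-KO samples and at most 2 and 5 in WT. The endosomal proteases were well expressed and not called. Ctss, which trims the invariant chain, had 2028 to 2535 normalised counts in CD1d-KO and 2366 to 2594 in WT (log2 fold change -0.09 ± 0.08, DESeq2 adjusted p = 0.714), and Ctsh had 2968 to 3243 and 2824 to 3037 (0.07 ± 0.06, adjusted p = 0.662). Of 9 processing genes tested between CD1d-KO 1 and 2 and CD1d-KO 3 and 4, 0 were called by DESeq2, and Ctss differed by a log2 value of -0.22 (adjusted p = 0.290).

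Among 16 genes for the factors on class II promoters and the interferon-gamma route to Ciita, all were tested and 2 were called, against 4.03% of all tested genes. Irf1, an interferon-induced factor that acts on the Ciita promoter, had 4986, 5510, 5847 and 5919 normalised counts in CD1d-KO 1 to 4 and 7368, 7343, 6656 and 6707 in WT 1 to 4, a fall of all CD1d-KO samples under all WT samples (log2 fold change -0.33 ± 0.07, DESeq2 adjusted p = 0.000465). Ifngr1, a chain of the interferon-gamma receptor, rose from 5039 to 5413 in WT to 5859 to 6760 in CD1d-KO (0.26 ± 0.06, adjusted p = 0.00462), a call lost without CD1d-KO 2 (adjusted p = 0.0548). In the samples without Y-linked counts Irf1 stood at -0.25 (adjusted p = 0.0647) and Ifngr1 at 0.18 (adjusted p = 0.288), and 0 of the 16 were called. Usf1, a factor at the Ciita promoter, was not called at -0.21 ± 0.07 (adjusted p = 0.0561).

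The subunits of the RFX complex, which binds the X box, and of NF-Y, which binds the Y box, were not called. Rfx5 was at -0.12 ± 0.10 (adjusted p = 0.668), Rfxank at -0.14 ± 0.09 (adjusted p = 0.474) and Rfxap at 0.12 ± 0.09 (adjusted p = 0.573). The median over the 16 was -0.0116. Without CD1d-KO 3, 5 of the 16 were called, Irf1 and Ifngr1 among them, with 646 genes called in all.

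Of 9 ligands that act beside class II in the contact with T cells, 7 were tested and 1 was called, against 4.03% of all tested genes. Their median log2 fold change was -0.197. Icam1, the adhesion ligand of LFA-1, had 30.4, 44.76, 24.44 and 22.08 normalised counts in CD1d-KO 1 to 4 and 69.7, 67.07, 58.17 and 77.02 in WT 1 to 4, and fell by 1.16 on the log2 scale (SE 0.27, DESeq2 adjusted p = 0.00141). Its fall was also called without CD1d-KO 1 and 2, at a log2 fold change of -1.54 (adjusted p = 0.00171). The values of CD1d-KO 1 and 2 were above those of CD1d-KO 3 and 4, the opposite order to that of the class II genes. Tnfrsf14 had a log2 fold change of -0.31 ± 0.10 (adjusted p = 0.0555) and Lgals9, which encodes galectin-9, of -0.20 ± 0.08 (adjusted p = 0.170), and both were called without CD1d-KO 3. Tnfrsf14 was also called without CD1d-KO 4 (adjusted p = 0.0269) and without WT 1 (adjusted p = 0.00675). The classical costimulator Cd86 had at most 4 counts in any sample and Cd80 at most 15.

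**Figure D5:**
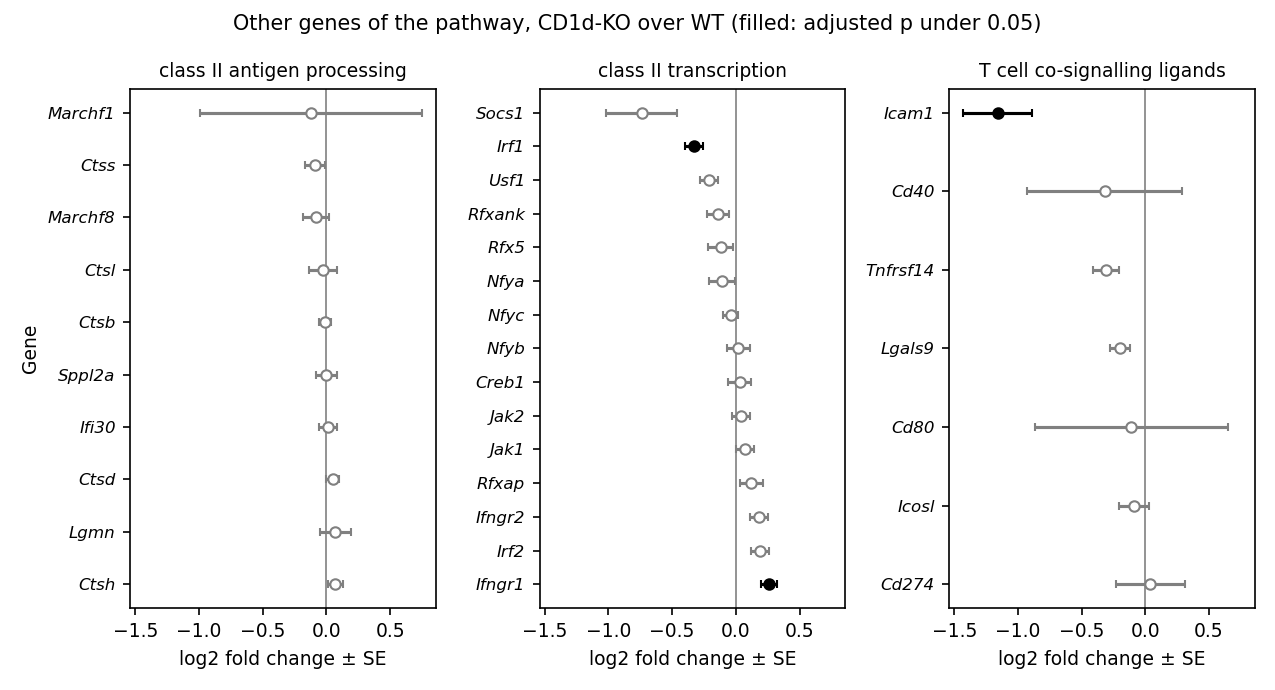
Log2 fold change ± SE (CD1d-KO over WT, DESeq2, 8 samples) of tested genes of the processing, transcription and co-signalling lists, without H2-Ob, whose CD1d-KO counts were all 0. Filled points passed an adjusted p under 0.05, which were Irf1 (-0.33), Ifngr1 (0.26) and Icam1 (-1.16).

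Over the 8 samples, the genes whose level followed the mean of the tested members most closely, of 11713 that averaged 50 or more normalised counts, were Ap1m2 (Pearson r = 0.991), Sp140 (r = 0.988), Elof1 (r = 0.981), Trim12a (r = 0.98) and 1810037I17Rik (r = 0.978). Without CD1d-KO 1 and 2 these genes had r of 0.91, 0.764, 0.756, 0.495 and 0.883. These values describe an order of samples that rests on the low CD1d-KO 1 and 2, and the ranges of the genes were narrow, as for Ap1m2 (the epithelial adaptor subunit AP-1 mu1B, with 3876 to 4286 normalised counts). Sp140, a nuclear body protein, had 41.13, 52.38, 89.93 and 93.13 normalised counts in CD1d-KO 1 to 4 and 96.42 to 119.8 in WT.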

How the data were processed

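The values the authors deposited are raw fragment counts for each gene, made with featureCounts 1.6.4 per the file headers, on read pairs over exons of an mm10 annotation, with primary alignments and without strand. Reads with several matches were thus assigned to a single place. The study's methods name HISAT2 on GRCm39, and coordinates here are those of the deposited table (mm10). Genotype and replicate number came from the labels, and 0 per-sample columns were left unused. Genotypes were compared with DESeq2 1.42.0 (in R 4.3.3) over all genes with genotype as the only term, median-of-ratios size factors and independent filtering (mean normalised count 2.41). An adjusted p (Benjamini-Hochberg, 15446 genes) under 0.05 was called. The scripts were tested on simulated data. Replicates are separate mice per the study's methods.

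Scores are the mean of centred log2(normalised count + 1) over a list. TPM was computed from the deposited counts and the summed exon length. At 100 counts the counting error is 10%, at 1000 it is 3.16%, and neither covers other error.

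The members and the lists were chosen with earlier results of these data known. Besides the members, named genes were Cd1d1, in each of the 3 pathway lists the called genes and the 3 most extreme statistics, Epcam, Ptprc, Cd79a, Itgax, Cd3e, the highest gene of each marker list of other cells, and the 5 genes most like the members. Any other gene was chosen after its values were seen. Single values of 2 listed genes are not reported here. Alternatives were edgeR 4.0.16, TMM factors, size factors without the 50 most abundant genes, a filter of 10 counts in 4 samples, no independent filtering, each sample left out, the replicate block, the samples without Y-linked counts (under 10 for each of Ddx3y, Uty, Kdm5d and Eif2s3y), and Y-linked counts, the leukocyte score or the stomach score as a covariate. The edgeR fit without the Y-linked samples and the comparison within CD1d-KO were added after the data were seen.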

Additional observations from a re-analysis of the deposited data

Results flagged for a closer look

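Of 69 groups of 4 samples, 6 had 1 sample far from the other 3 relative to the group's range, and chance flags about 1 in 20 groups. In CD1d-KO, sample 4 had an H2-DMb2 normalised count of 0.9601 (1 raw count) where the others had 0. CD1d-KO 3 was high in Ctsh (3243, others 2968 to 3007) and in Lgals9 (21960, others 17740 to 18320). CD1d-KO 4 was high in the gastric gene Gkn2 (193, others 0 to 0.9524) and in the stomach score (0.2818, others -2.993 to -2.714). WT 1 was high in the dendritic cell gene Itgax (19.64, others 2.445 to 4.192).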

How the results depend on the processing

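The 7 tested members were lower in CD1d-KO under all 19 alternatives, with log2 fold changes from -3.19 to -0.84 for H2-Aa, -2.79 to -0.84 for Cd74 and -1.75 to -0.45 for Ciita. The count of members called, 0 over all samples, was 5 without the Y-linked samples (4 with edgeR), 1 with Y-linked counts as a covariate and 0 to 1 when 1 sample was left out. The 622 genes called became 228 with edgeR, 372 without the Y-linked samples, 82 with the leukocyte and 108 with the stomach score, and 323 to 646 when 1 sample was left out. For processing genes, 1 became 0 with edgeR, the count filter, the replicate block, both Y-linked alternatives, either score and edgeR without the Y-linked samples, and 0 to 1 when 1 sample was left out. For transcription genes, 2 became 1 with edgeR or the Y-linked covariate, 0 without the Y-linked samples by either tool or with either score, and 1 to 5 when 1 sample was left out. For co-signalling ligands, 1 became 2 with the count filter or the replicate block, 0 with either score, and 1 to 3 when 1 sample was left out. Log2 fold changes changed sign for Ctss (0.02 in the 3 Y-linked alternatives, 0.08 with the stomach score) and, with the stomach score, for Tnfrsf14 (0.06), Gkn2 (0.26), Xist (0.70), Sp140 (0.01), Trim12a (0.02) and Pecam1 (-0.39). Pecam1, at 0.08, ran from -0.20 to 0.47 when 1 sample was left out (below 0 without CD1d-KO 1, -0.08, and without WT 2) and also changed sign in edgeR without the Y-linked samples (0.00), and with the leukocyte score Itgax (0.92) and Cd3e (2.90) did. The causes were not tested.

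A pairing by replicate number was not established. Deviations of same-numbered samples correlated at 0.312, 0.018, 0.233 and 0.00173, and those of differently numbered samples at -0.361 to 0.364. With the replicate block 0 members were called, and of 569 genes called 434 were shared. All 7 tested members then stood at an unadjusted p under 0.05 (DESeq2), with log2 fold changes from -3.19 to -1.67. Only 2 CD1d-KO samples had no Y-linked counts and no WT sample had them, which limits every comparison between genotypes. H2-DMb2 and H2-Ob had too few counts for a difference of moderate size to be detectable.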

Other observations

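Jchain, the joining chain of secreted IgA and IgM made by plasma cells, had 1.788, 7.62, 1.955 and 16.32 normalised counts in CD1d-KO 1 to 4 and 455.5, 99.56, 20.36 and 36.68 in WT 1 to 4, with a log2 fold change of -4.47 ± 1.14 (DESeq2 adjusted p = 0.00552), and was not called by edgeR (adjusted p = 0.0572) or without CD1d-KO 1 and 2 (adjusted p = 0.164). The B cell receptor component Cd79a had 7.152, 11.43, 0.9775 and 2.88 in CD1d-KO and 7.756 to 24.54 in WT (DESeq2 adjusted p = 0.386), with its higher CD1d-KO values in the samples where the class II genes were lowest. The T cell receptor component Cd3e had 1.905 to 6.721 in CD1d-KO and 45.16, 15.72, 0.9695 and 0 in WT 1 to 4 (DESeq2 adjusted p = 0.445). The endothelial gene Pecam1 had 14.29 to 24.14 in CD1d-KO and 6.288 to 29.45 in WT (DESeq2 adjusted p = 0.976).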
